A study of Mus musculus with 12 samples.

Results

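Cells answer oxidants, heme and free metal ions with a small set of inducible genes, and 10 of them were followed here through every library: the metallothioneins Mt1, Mt2 and Mt3, the heme and quinone enzymes Hmox1 and Nqo1, the glutathione genes Gclc, Gclm and Slc7a11, and the thioredoxin-linked genes Txnrd1 and Srxn1. They were taken by gene symbol from the 22609 genes of the count tables, and all 10 were found. The libraries came from sensory neurons of the trigeminal ganglion (TG) that innervate the tongue, and the study compared animals with and without a tongue tumor in each sex.

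All animals were adult Balb/c athymic nude mice, which lack mature T cells but keep macrophages and neutrophils. MT (male, tumor) and FT (female, tumor) mice carried a tongue tumor grown from cells of the human line HSC3 (oral squamous cell carcinoma), whereas MN (male, normal) and FN (female, normal) mice were the controls. The sample labels state that the controls received no cells, while the study's methods describe an injection of human oral keratinocytes, so what the controls received is not certain. In every group the fluorescent lectin WGA-488 was put into the tongue on day 13 to mark lingual neurons, and the TG were dissociated and sorted for bright cells on day 15. Each group had 3 libraries, and each library was a pool of 4 TG, from 2 mice in MN and FN and from the tumor side of 4 mice in MT and FT. The p-values below therefore measure the spread between pools.

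The transcription factor NRF2, encoded by Nfe2l2, is held in the cytosol and degraded through KEAP1. Oxidants and electrophiles release it, and it then binds antioxidant response elements beside genes that make glutathione, reduce quinones and recycle oxidized thiols. Metallothioneins are small cysteine-rich proteins that bind zinc and copper; Mt1 and Mt2 are induced by the metal-sensing factor MTF1 and by glucocorticoids in most tissues, whereas Mt3 is best known from neurons and responds little to metals.

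The 3 metallothionein genes lie in a row on chromosome 8 (build mm9, forward strand), Mt3 at chr8:96676507-96678048, Mt2 at chr8:96696518-96697467 and Mt1 at chr8:96702989-96704225, within 27.7 kb. The 250 bases before their start sites (RefSeq, GRCm38.p6, forward strand) are shown because most results below turn on these 3 genes. Capitals mark the core of the metal response element, searched as TGCACNC or TGCGCNC on both strands. The Mt1 stretch is chr8:94178839-94179088, the Mt2 stretch chr8:94172368-94172617 and the Mt3 stretch chr8:94152357-94152606.
Mt1: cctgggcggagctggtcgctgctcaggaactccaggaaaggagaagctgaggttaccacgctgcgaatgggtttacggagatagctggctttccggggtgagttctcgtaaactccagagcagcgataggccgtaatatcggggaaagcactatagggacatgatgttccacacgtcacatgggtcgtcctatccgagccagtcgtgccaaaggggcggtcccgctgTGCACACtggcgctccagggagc
Mt2: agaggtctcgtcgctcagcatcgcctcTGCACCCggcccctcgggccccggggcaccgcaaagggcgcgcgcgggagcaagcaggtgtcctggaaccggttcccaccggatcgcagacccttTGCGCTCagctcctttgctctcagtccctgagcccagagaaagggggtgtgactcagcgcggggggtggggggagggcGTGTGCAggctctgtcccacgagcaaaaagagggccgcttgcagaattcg
Mt3: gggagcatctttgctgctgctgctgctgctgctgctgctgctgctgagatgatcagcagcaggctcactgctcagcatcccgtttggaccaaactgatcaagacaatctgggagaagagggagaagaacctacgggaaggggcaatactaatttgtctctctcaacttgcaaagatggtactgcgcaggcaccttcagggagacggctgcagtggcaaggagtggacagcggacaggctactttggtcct
The Mt2 stretch held 3 matches, the last of them on the reverse strand, and the Mt1 stretch held 1, while these letters were not found in the Mt3 stretch. At least 1 match was present in 21.4% of 32851 mouse promoters of the same length. A match is a description of letters and not a measured binding site. Only the 250 bases before the annotated start were searched, so matches elsewhere, also just after that start, were not counted.

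Of the other members with a promoter entry, Gclm, the regulatory subunit of the enzyme that starts glutathione synthesis, held 2 such matches and Srxn1 held 1. The core of the antioxidant response element, searched as TGACNNNGC on both strands, was found once each in the Mt2 and Gclm stretches and in 1 of 3 Txnrd1 promoters, against 10.2% of all promoters. In Gclm it overlapped a metal match. Hmox1 and Gclc were not searched.

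The other members are spread over 5 chromosomes (mm9). Hmox1, the enzyme that opens heme, lies at chr8:77617490-77624495 and Nqo1, which reduces quinones, at chr8:109912125-109927106. Gclc, the catalytic subunit of glutamate-cysteine ligase, lies at chr9:77602342-77642292, Gclm at chr3:121948475-121972902 and Slc7a11, the cystine importer, at chr3:50168858-50247535. Txnrd1, the cytosolic thioredoxin reductase, lies at chr10:82296696-82360469 and Srxn1, which repairs over-oxidized peroxiredoxins, at chr2:151931252-151937112. Exons of Gclm overlap those of an antisense gene, Gm17494, which is not a row of the count tables.

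Between 4592891 and 8922011 reads per library fell on genes, and the 19 sensory neuron markers summed to 23266 to 34275 CPM (the reads of a gene scaled to the same library total) in every library. FN2, FT2 and FT3 stood apart from the other 9. Reads placed at several positions in the genome made up 56.0%, 68.4% and 52.6% of their reads, against 43.0% to 45.5% in the other 9. In these libraries the shortest transcripts had higher counts and those of over 3000 and up to 6000 bases lower counts. Relative to the median of the other 9 libraries, the 143 genes with at most 800 bases of exon and a median of at least 10 CPM had a median log2 ratio of 1.48 in FN2, 1.81 in FT2 and 0.97 in FT3, whereas the 3995 genes of over 3000 and up to 6000 bases had −1.11, −0.90 and −0.73. The 2219 genes of over 6000 bases had −0.93, −0.24 and −0.73, so in FT2 the longest genes were lowered less. Exon lengths of Mt1, Mt2 and Mt3 are 753, 556 and 538 bases, so they are among these short genes, whereas Gclc, Txnrd1 and Gclm have 3423, 4019 and 5137 bases. The main female results are therefore given with and without FN2 and FT2.

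In the MN libraries the members were ordered by RPKM, which is CPM divided by exon length in kilobases, as Mt3 at 538, Mt1 at 259, Mt2 at 92.9, Txnrd1 at 70.5, Srxn1 at 65.7, Gclm at 17.0, Hmox1 at 14.6, Nqo1 at 13.2, Gclc at 4.28 and Slc7a11 at 0.103. In the MN libraries the values of Txnrd1 and Srxn1 overlapped, and Hmox1 overlapped with both Gclm and Nqo1. Gclm, at 15.6 to 18.7, lay above Nqo1, at 12.8 to 13.6. Over all 12 libraries Mt3 ranked 29 and Mt1 ranked 33 of 21627 genes by mean RPKM, while Slc7a11 ranked 15058. Slc7a11 had 6 to 16 reads in 11 libraries and none in FT2, where 3 counts, the limit that a count of 0 allows, would be 0.653 CPM. Log2 fold changes of Slc7a11 between 2 groups had standard errors of 0.73 to 0.75 over all 12 libraries. Only a large change could have been detected at this depth.

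**Figure D1:**
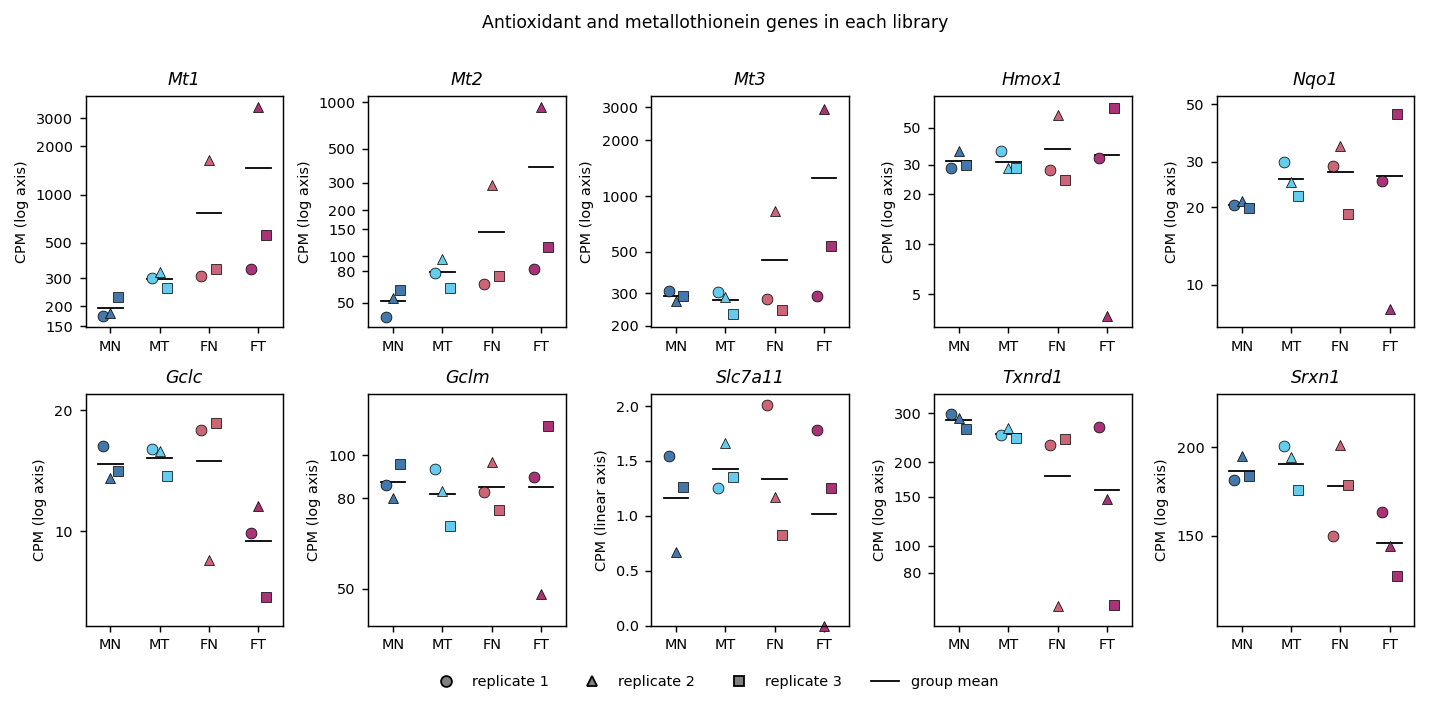
CPM of each of the 10 genes in the 12 libraries, on a log axis except for Slc7a11, with 1 point per library, its shape giving the replicate number, and a line at each group mean. Mt1 stood between 174 and 229 in MN and between 261 and 3520 in all other libraries, and the highest Mt1, Mt2 and Mt3 points are FT2.

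In males, Mt1 and Mt2 had higher counts in every tumor library than in any control library, whereas Mt3 overlapped; the differences did not pass the adjusted test in any fit. Mt1 counts were 174, 183 and 229 CPM in MN1 to MN3, and 301, 329 and 261 CPM in MT1 to MT3. All MT libraries lay above all MN libraries, with means of 297 ± 34.0 against 195 ± 29.3 CPM (SD, n = 3 each). Mt2 stood at 40.8, 53.7 and 60.5 CPM in MN and at 78.2, 96.8 and 62.8 CPM in MT, again without overlap. The neuronal Mt3 stood at 308, 271 and 289 CPM in MN and at 306, 286 and 231 CPM in MT, and its groups overlapped. The ratio of Mt1 to Mt3 counts was 0.565 to 0.791 in MN and 0.986 to 1.98 in the other 9 libraries.

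Nqo1 was the only other member whose MT libraries all lay above the MN libraries, with 22.1 to 29.9 against 19.9 to 21.1 CPM. Thus 3 of 10 members were higher in MT without overlap, compared with 5.8% of the 13835 genes tested, and none was lower, as 7.32% of genes were. The members were chosen with earlier results of these data known, and the study had listed Mt1 and Mt2 as higher in MT. Mt1 and Mt2 also moved together, with a Pearson's r of 0.903 in the 9 libraries other than FN2, FT2 and FT3. This count is therefore a description and not a test. Hmox1 (28.5 to 36.5 CPM in MN, 28.6 to 36.2 in MT), Gclc (13.6 to 16.3 and 13.7 to 16.0), Gclm (80.1 to 95.8 and 69.4 to 92.9) and Srxn1 (180 to 194 and 174 to 200) overlapped almost fully. Txnrd1 also overlapped, at 263 to 298 CPM in MN and 244 to 264 in MT.

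The change of Mt1 between MN and MT was tested in several fits, which gave the same size and different errors. With all 12 libraries in 1 edgeR quasi-likelihood fit, the log2 fold change was 0.63 ± 0.85 (SE, adjusted p = 1.00), and that of Mt2 was 0.64 ± 0.86 (adjusted p = 1.00). In this fit no member and 0 of 13835 genes passed an adjusted p of 0.05 (0%), 59 genes (0.426%) had an unadjusted p under 0.05, and no member did. DESeq2 called 2 genes and limma-voom 47, none of them members. The error is shared by all groups, and the female libraries entered it: with only the 6 male libraries, the same test gave Mt1 a log2 fold change of 0.62 ± 0.13 (adjusted p = 0.239) and Mt2 0.63 ± 0.19 (adjusted p = 0.461). In that fit 6 genes passed the adjusted threshold (0.045%), none of them a member. Nqo1 reached 0.35 ± 0.16 (adjusted p = 0.744) and Mt3 −0.06 ± 0.13 with these 6 libraries.

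A second call combined an unadjusted p under 0.05, a fold change above 1.5 and a mean RPKM above 5 in either group, after the criteria of the study's methods. By these combined criteria, 0 of 10 members were called in the 12-library fit, against 0.152% of all genes. Gclc and Slc7a11 could not meet these criteria with 12 libraries, as their group means were at most 4.43 and 0.127 RPKM. Mt1 and Mt2 met them with the 6 male libraries alone (0.878% of all genes) and in the fit without FN2 and FT2 (0.645%), where the log2 fold changes were 0.62 ± 0.23 and 0.64 ± 0.24. Leaving out each MN or MT library in turn gave log2 fold changes of 0.54 to 0.74 for Mt1 and 0.47 to 0.80 for Mt2.

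Markers of other cells in the sorted pools were also measured. The 17 macrophage genes summed to 37.8 to 56.0 CPM in MN and to 34.0, 42.0 and 351 CPM in MT1, MT2 and MT3. Mt1 in the same MT libraries was 301, 329 and 261 CPM. Satellite glia markers summed to 1091 to 1293 CPM in MN and 915, 987 and 1330 CPM in MT. The part of either cell type in the Mt1 and Mt2 difference was not tested. In bulk RNA from pooled cells, fewer cells of a type and less RNA per cell cannot be told apart.

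**Figure D2:**
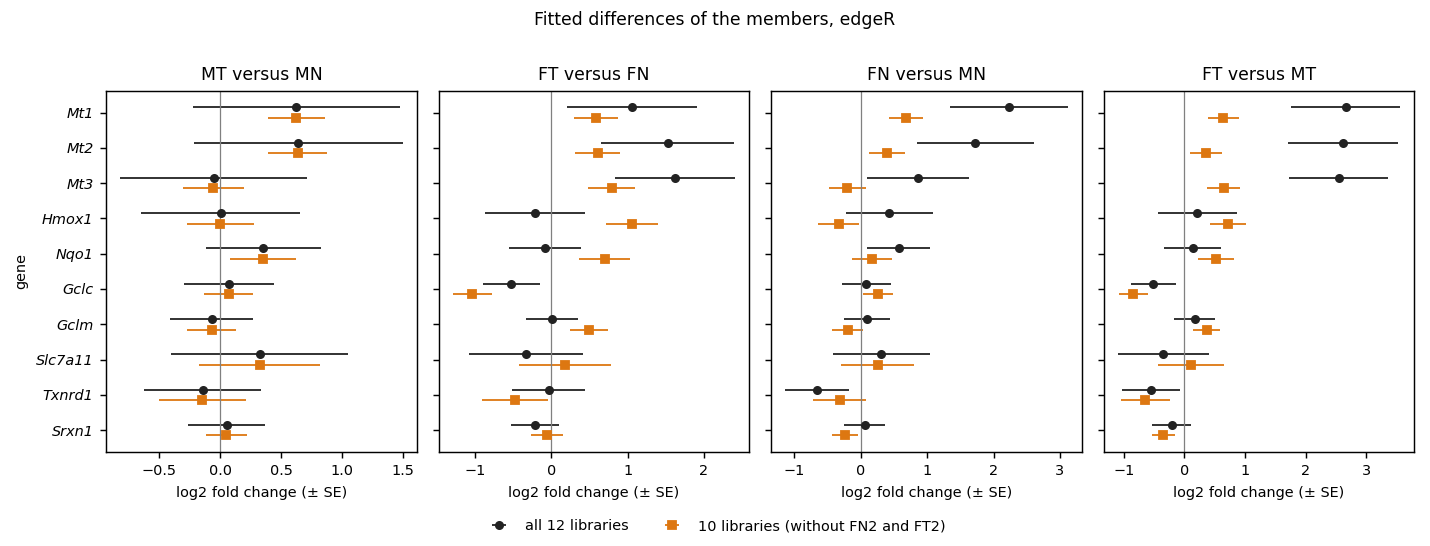
Log2 fold change of each gene with its SE in the 4 group comparisons, from the fit of all 12 libraries and from the fit without FN2 and FT2. Mt1 and Mt2 have the same value in MT versus MN with a smaller error in the second fit, and in FT versus MT the metallothioneins lie between 2.54 and 2.66 with all libraries and, for Mt1 and Mt3, at 0.64 without the pair.

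Among the controls, Mt1 had higher counts in females. FN1, FN2 and FN3 had 308, 1645 and 342 CPM of Mt1, and each was above the highest MN library (229 CPM). The log2 fold change of FN over MN was 2.23 ± 0.89 (adjusted p = 0.809, edgeR). Without FN2 and FT2 it was 0.68 ± 0.26 (adjusted p = 0.703), with means of 325 ± 24.3 (n = 2) and 195 ± 29.3 CPM (n = 3). Mt1 met the combined criteria in both fits, as 3.69% and 2.27% of all genes did. With only FN1, FN3 and the 3 MN libraries, it passed the adjusted threshold at 0.68 ± 0.11 (adjusted p = 0.00447), as 5.53% of genes did, and limma-voom with sample weights on all 12 libraries gave an adjusted p of 0.0471, where 5.99% of genes passed. It missed the combined criteria when FN2 (0.70 ± 0.78), MN1 (2.14 ± 1.07) or MN2 (2.19 ± 1.07) alone was left out.

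Mt2 was also above all MN libraries in each FN library, at 66.4, 292 and 74.5 CPM, so that 2 of 10 members were higher in FN without overlap, against 9.66% of genes. Its log2 fold change was 1.73 ± 0.88 (adjusted p = 0.809) over 12 libraries and 0.39 ± 0.27 (adjusted p = 0.977) without FN2 and FT2. Mt3 stood at 278, 830 and 245 CPM. Its log2 fold change of 0.86 ± 0.77 became −0.20 without FN2 and FT2. No member and 0 of 13360 genes passed the adjusted p in the 12-library fit (0%), where 1 member and 744 genes (5.57%) had an unadjusted p under 0.05, and DESeq2 called 20 genes with no member among them.

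Txnrd1 was the 1 member lower in every FN library than in every MN library, at 230, 60.7 and 243 against 298, 289 and 263 CPM, compared with 10.2% of genes. Its log2 fold change was −0.66 ± 0.48 (adjusted p = 0.813). With FN1, FN3 and the MN libraries only it was −0.31 (adjusted p = 0.0814). Gclc, at 17.9, 8.48 and 18.6 CPM in FN, had a log2 fold change of 0.08 relative to MN. Hmox1 was 28.0, 59.8 and 24.2 CPM and Nqo1 28.9, 34.6 and 18.9 CPM in FN1, FN2 and FN3, so both were highest in FN2 and overlapped with MN. Gclm (75.3 to 96.8 CPM) and Srxn1 (150 to 201 CPM) overlapped with MN.

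Summed macrophage and fibroblast markers, like Mt1, were above all MN libraries in each FN library. Macrophage genes summed to 218 to 483 CPM in FN against 37.8 to 56.0 in MN, and all 17 had a positive log2 fold change, with a median of 3.00 against 0.07 over all genes. Satellite glia markers summed to 2042, 958 and 2022 CPM in FN1, FN2 and FN3 against 1091 to 1293 in MN, so FN2 was below MN. Neutrophil markers summed to 18.6 to 78.2 CPM against 0.562 to 25.4, fibroblast markers to 167 to 412 CPM against 82.4 to 143, endothelial markers to 943 to 1409 CPM against 454 to 1058 and pericyte markers to 145 to 303 CPM against 102 to 170. The neutrophil, endothelial and pericyte sums overlapped between the groups. The log2 fold change was positive for 5 of 9 myelinating Schwann cell markers (median 0.20). Their part in the Mt1 and Mt2 difference between FN and MN was not tested. The 9 libraries other than MN were all above the 3 MN libraries for both Mt1 and Mt2, an observation made after their values were seen, and 0.788% of genes had this pattern.

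In females, the tumor comparison turned on FT2. Mt1 was 341, 3520 and 556 CPM in FT1, FT2 and FT3, Mt2 was 82.6, 936 and 116 CPM, and Mt3 was 291, 2947 and 538 CPM. FT1 lay within the FN range for each of them. Over 12 libraries the log2 fold changes of FT over FN were 1.05 ± 0.86 for Mt1, 1.52 ± 0.87 for Mt2 and 1.62 ± 0.79 for Mt3 (adjusted p = 0.994 for each). No member met the combined criteria, against 2.18% of genes, no member was without overlap, against 2.49%, and none of 13835 genes passed the adjusted p (0%) with edgeR, DESeq2 or limma-voom, while 528 genes (3.82%), no member among them, had an unadjusted p under 0.05 with edgeR. Leaving out FT2 alone turned Mt1 to −0.97, Mt2 to −0.73 and Mt3 to −0.28, whereas leaving out FN2 alone gave 2.58, 2.83 and 2.66. In that second fit all 3 met the combined criteria, as 10.9% of genes did. Without both FN2 and FT2, Mt1 and Mt2 had 0.59 ± 0.29 and 0.61 ± 0.30 (adjusted p = 0.337 and 0.336). Without FT1 or FT3, Mt2 met the combined criteria at 2.03 or 1.98 and Mt3 at 2.12 or 2.02, and FT2 was in FT in both fits.

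The metallothioneins were set beside other short transcripts in the 3 libraries that stood apart. Relative to the median of the 9 libraries, Mt1, Mt2 and Mt3 had log2 ratios of 3.55, 3.82 and 3.37 in FT2, higher than 91.6%, 93.7% and 87.4% of the 143 shortest genes. In FN2 the values were 2.45, 2.14 and 1.54, higher than 99.3%, 96.5% and 59.4% of those genes. In FT3 they were 0.89, 0.80 and 0.91, which only 30.1%, 21.7% and 37.1% of the short genes fell below. The 3 metallothioneins together took 0.0508% of all reads on genes in MN2 and 0.740% in FT2.

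**Figure D3:**
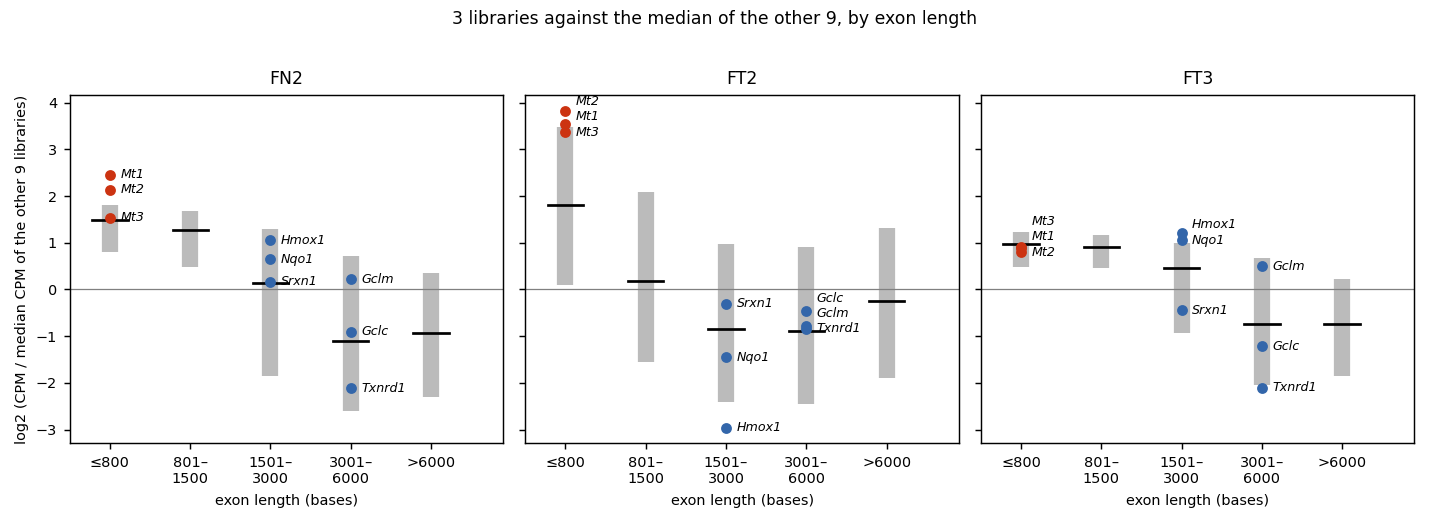
Median log2 ratio to the median of the 9 other libraries by exon length (bases, in bins) for FN2, FT2 and FT3, with black lines for medians, grey bars from percentile 10 to percentile 90 of the genes, and all members except Slc7a11 as points. Mt1, Mt2 and Mt3, at 538 to 753 bases, lie above the short-gene median in FT2 and near it in FT3, Txnrd1 and Gclc lie below 0 in all 3 libraries, and Gclm, longer than both, lies at 0.22 in FN2, −0.77 in FT2 and 0.49 in FT3.

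When FN2 and FT2 were left out, the female tumor comparison involved other members. Gclc was 17.9 and 18.6 CPM in FN1 and FN3 and 9.88 and 6.83 CPM in FT1 and FT3. Its log2 fold change was −1.04 ± 0.26 (adjusted p = 0.334), against −0.52 ± 0.37 over 12 libraries, where FN2 had 8.48 and FT2 11.5 CPM. Hmox1 was 28.0 and 24.2 CPM in FN1 and FN3 and 33.1 and 66.4 CPM in FT1 and FT3, a log2 fold change of 1.05 ± 0.34 (adjusted p = 0.334), compared with −0.22 ± 0.65 with all 12 libraries, in which FT2 had 3.70 CPM and FN2 59.8. The study had listed Hmox1 among genes higher in FT than in FN, opposite in sign to this 12-library value. Mt3 had 0.79 ± 0.31 (adjusted p = 0.334). These 3 of 10 members met the combined criteria, as 9.74% of all genes did in this fit. Gclc reached the RPKM minimum of 5 only through FN, with 5.21 in FN1 and 5.44 in FN3. Over 12 libraries its higher group mean was 4.38 RPKM, so it could not be called there. With FT3, the third library that stood apart, left out too, the log2 fold change was 0.34 for Hmox1, 0.08 for Mt1 and −0.88 for Gclc. FT was then the library FT1 alone, assumed in the fit to vary like the other groups, so these are values without a replicate check.

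Nqo1 and Gclm followed Hmox1 across the female libraries. Nqo1 was 25.4, 8.06 and 45.9 CPM and Gclm 89.3, 48.6 and 117 CPM in FT1, FT2 and FT3, so that all 3 genes were lowest in FT2 and highest in FT3. Srxn1 stood at 162, 145 and 132 CPM in FT and 150, 201 and 177 CPM in FN, and its groups overlapped. Txnrd1 was 267, 147 and 61.1 CPM in FT, and its 2 lowest libraries of all 12 were FN2 and FT3. Summed macrophage markers in FT were 259 to 612 CPM and overlapped those in FN, while neutrophil markers were 72.0 to 194 CPM against 18.6 to 78.2 CPM and overlapped slightly.

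Between tumor-bearing females and males, all 3 metallothioneins met the combined criteria. FT exceeded MT by log2 fold changes of 2.66 ± 0.90 for Mt1 (adjusted p = 0.332), 2.61 ± 0.90 for Mt2 (adjusted p = 0.332) and 2.54 ± 0.81 for Mt3 (adjusted p = 0.322). These were 3 of 10 members, against 8.16% of all genes. Mt1 alone had each FT library above each MT library, as 8.03% of genes did. No member and 0 of 13360 genes passed the adjusted p with edgeR (0%), 1610 genes (12.1%) and these 3 members had an unadjusted p under 0.05, and DESeq2 called 244 genes (1.41%), among them Mt3 with an adjusted p of 0.0369. With FT1 left out, edgeR gave Mt1, Mt2 and Mt3 adjusted p of 0.0442, 0.0455 and 0.0378, where 5.55% of genes passed. FT was then FT2 and FT3 alone, both among the libraries that stood apart with higher counts of short transcripts. With FT2 left out, their log2 fold changes were 0.63, 0.35 and 0.64, and none met the criteria. Without both FN2 and FT2, Mt1 (0.64, adjusted p = 0.204), Mt3 (0.64, adjusted p = 0.213) and Hmox1 (0.72, adjusted p = 0.207) met the criteria, in a fit where 13.9% of genes did, and Mt2 had 0.36 (adjusted p = 0.391). FT was then FT1 and FT3, and FT3 was another of the libraries that stood apart. In FT1, Mt3 (291 CPM) and Hmox1 (33.1 CPM) lay within the MT range, whereas FT3 had 538 and 66.4 CPM. Mt1 was 341 CPM in FT1 and 556 in FT3, against 261 to 329 in MT.

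Gclc and Srxn1 had each FT library below each MT library, against 9.61% of genes. Gclc was 9.42 ± 2.39 CPM in FT and 15.2 ± 1.27 in MT, and Srxn1 was 146 ± 15.1 and 189 ± 13.8 CPM (SD, n = 3 each). Neither passed a test in the 12-library fit. Txnrd1 had a log2 fold change of −0.55 and Hmox1 of 0.21 in this comparison. Macrophage markers were higher in FT than in MT for 16 of 17 genes, with a median log2 fold change of 1.86, and satellite glia markers for 6 of 8, with a median of 1.09; their part in the metallothionein values was not tested.

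An offset for exon length, fitted per library, was added after the length shift was seen. Over 12 libraries it lowered the log2 fold changes of FT over MT to 1.32 ± 0.58 for Mt1, which still met the combined criteria (9.01% of genes), 0.79 for Mt2 and 0.74 for Mt3, and that of FN over MN for Mt1 to 1.06, which did not. The MT over MN values were 0.55 for Mt1 and 0.55 for Mt2. With the offset and without FN2 and FT2, Mt1 was 0.56 ± 0.17 in MT over MN, below the fold of 1.5, and 0.61 in FN over MN, where it met the criteria (2.61% of genes), whereas FT over FN was −0.06 and FT over MT −0.01. Gclc was −0.88 in FT over FN and met the criteria, as 7.36% of genes did. It again reached the RPKM minimum only through FN1 and FN3.

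The difference between the sexes in the tumor effect was tested as an interaction. It was 0.43 ± 1.20 for Mt1 and −0.22 ± 0.92 for Hmox1 on the log2 scale, and no member passed the adjusted p or the combined criteria (0.614% of genes), nor did any of 13835 genes with edgeR, DESeq2 or limma-voom (0%), with 203 genes (1.47%) and no member at an unadjusted p under 0.05 in edgeR. Without FN2 and FT2, Gclc had an interaction of −1.11 and Hmox1 of 1.05 (adjusted p = 0.635 for both), which met the criteria together with 3.84% of genes, while Mt1 had −0.04. Gclc reached the RPKM minimum here only through FN1 and FN3. FT3, which also stood apart, was still in FT. With 3 pools a group, the 95% interval for Mt1 over 12 libraries ran from −1.92 to 2.78, so neither equal nor unequal effects in the sexes were shown.

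Likeness between members across the 12 libraries was described by Pearson's r of log2 CPM. Mt1 and Mt2 had r = 0.987, and each had 0.939 and 0.953 with Mt3. Hmox1 and Nqo1 had 0.936, and Gclm had 0.916 and 0.899 with them. Gclc and Txnrd1, both long transcripts, had 0.811. Most of these values rested on FN2, FT2 and FT3. In the other 9 libraries r was 0.903 for Mt1 and Mt2, −0.191 for Mt1 and Mt3, −0.081 for Mt2 and Mt3, 0.413 for Hmox1 and Nqo1 and −0.342 for Gclc and Txnrd1. The points share these libraries, so the values carry no test. Over the 12 libraries, the genes most like Mt1 were AI462493 (0.991), Mt2 (0.987) and Eif1 (0.984), those most like Mt2 were Mt1, Gm16379 (0.976) and Chmp4b (0.974), and those most like Mt3 were Trmt112 (0.998), Tceb2 (0.997) and Atp5j2 (0.997).

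For the other members, Hmox1 was closest to Rdh14 (0.994), Ube2v1 (0.99) and Aldoart1 (0.988), and Nqo1 to Acot9 (0.981), Amn1 (0.973) and Crym (0.973). Genes among the most like Gclc were Gm3604 (0.932) and Asb7 (0.93), and Gclm was closest to Trmt61b (0.957), Mthfsd (0.948) and Mettl21d (0.948). Genes among the most like Txnrd1 were Reep1 (0.995) and Fam115a (0.994), while Srxn1 was closest to 2310035C23Rik (0.839), Prdm4 (0.832) and Csrnp2 (0.83), and the sparsely counted Slc7a11 to Gm15663 (0.968), Mapkapk3 (0.968) and Armc10 (0.951). The ratio of Mt1 to Mt2 counts varied only from 3.39 to 5.64, whereas that of Gclm to Gclc, which together form 1 enzyme, varied from 4.04 to 17.1. The highest Gclm to Gclc ratios were 17.1 in FT3, 11.4 in FN2 and 9.04 in FT1, and the MN and MT libraries had 5.06 to 6.79.

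The lists of related genes had medians near that of all genes in males. In the 12-library fit, 5 of 8 NRF2 regulators were higher in MT, with a median log2 fold change of 0.08, and 15 of 21 other NRF2 targets, with a median of 0.04. Of the superoxide dismutases, peroxidases and glutathione enzymes, 10 of 17 were higher (median 0.025), as were 5 of 9 genes of zinc and copper handling (0.03) and 6 of 8 of heme and iron handling (0.04). The median over all 13835 genes was 0.01. None of the genes in these lists met the combined criteria. Osgin1, an oxidant-induced growth inhibitor, had 1.91 to 3.33 CPM in MN and 4.57 to 5.56 in MT, and its RPKM stayed under 5; it was singled out after its values were seen.

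Of the glucocorticoid-responsive genes, 10 of 10 had a positive log2 fold change in MT relative to MN, with a median of 0.33, where 7086 of 13835 genes were positive. With the 6 male libraries alone, Per1, a clock gene and glucocorticoid target, reached 0.69 ± 0.16 (adjusted p = 0.334), and Sgk1, a hormone-induced kinase, 0.61 ± 0.15 (adjusted p = 0.348), and both met the combined criteria. In all, 6 of the 10 genes had an unadjusted p under 0.05 in that fit, against 6.92% of all genes, and none passed the adjusted p. The list was chosen with earlier results of these data known. The study had reported Per1 and Sgk1 as higher in MT than in MN, and Sgk1 as lower in FT than in FN. These counts are therefore a description and not a test of the list.

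**Figure D4:**
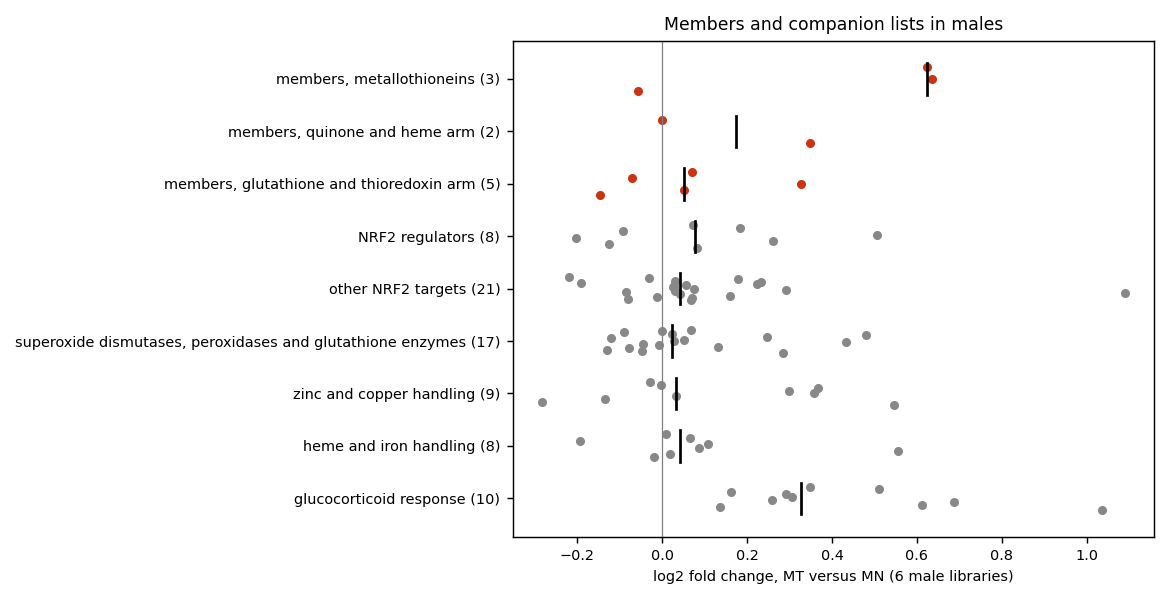
Log2 fold change of MT over MN, from the fit of the 6 male libraries, for the 10 members and the genes of each related list, with 1 point per gene and the median of each list. All 10 glucocorticoid-responsive genes lie above 0, and the NRF2 and peroxidase lists are centered near 0.

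In FN relative to MN, 15 of 16 superoxide dismutases, peroxidases and glutathione enzymes were higher (median 0.71, against 0.07 over all genes), as were 12 of 20 other NRF2 targets (0.72) and 6 of 8 genes of zinc and copper handling (0.73). Those meeting the combined criteria included the glutathione transferases Gsta4 (1.70) and Gstm1 (1.56), the ferritin heavy chain Fth1 (1.27), the glutaredoxin Glrx5 (1.40), the peroxidases Gpx3 (1.32) and Gpx4 (1.28), and Ccs (1.14), the copper chaperone of superoxide dismutase. Without FN2 and FT2 the medians of the NRF2 targets and peroxidases were 0.01 and −0.03, and Gsta4 (0.79), Gpx3 (0.59) and Sod3 (0.73), the extracellular superoxide dismutase, still met the criteria. The glucocorticoid list had 7 of 9 higher over 12 libraries (median 0.30) and 8 of 9 without FN2 and FT2 (median 0.30), where Dusp1 (0.77) and Sgk1 (0.63) met the criteria.

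In FT relative to MT, 16 of 20 other NRF2 targets (median 0.48) and 15 of 16 peroxidases and related enzymes (0.52) were higher, against a median of 0.07 over all genes. Without FN2 and FT2 these medians were 0.51 and 0.60, against −0.01 over all genes, with FT3 still in FT. Over 12 libraries Osgin1 (3.33), Gsta4 (1.73), Txn1 (1.35), the substrate of Txnrd1, and the copper chaperone Atox1 (2.69) met the combined criteria. So did Nfe2l2, at 1.34, with 66.1, 208 and 55.6 CPM in FT against 46.0 to 61.6 in MT, so that FT2 alone stood far above, and its value without FN2 and FT2 was 0.22. Glucocorticoid-responsive genes had the opposite sign: 7 of 9 were lower in FT, with a median of −0.71, and Sgk1 (−1.32) and Errfi1 (−1.12) met the criteria. In FT relative to FN, 10 of 10 of them were lower over 12 libraries (median −0.45, against −0.06 over all genes) and 7 of 10 without FN2 and FT2 (median −0.40). In the 12-library fit Sgk1 met the criteria there, with 71.3, 22.2 and 32.1 CPM in FT and 114, 31.7 and 121 in FN, along with Osgin1 (2.83) and Atox1 (1.69). Both were far highest in FT2: Osgin1 stood at 4.94, 104 and 12.8 CPM in FT and 10.2, 5.22 and 5.75 in FN, and Atox1 at 198, 1756 and 279 in FT and 174, 459 and 137 in FN. Without FN2 and FT2, Osgin1 had 0.28 in FT relative to FN and 0.83 relative to MT and no longer met the criteria. Atox1 still met them at 0.74 in both comparisons, and Gsta4 (1.44), Txn1 (0.60), Sgk1 (−1.10) and Errfi1 (−0.88) met them relative to MT. FT was then FT1 and FT3, and FT3 also stood apart. In FT1 and FT3, Errfi1 was 82.0 and 21.8 CPM, against 88.3 to 102 in MT, and Txn1 531 and 882, against 451 to 525. Gsta4 was 22.6 and 50.8 CPM, against 11.3 to 17.2, and Sgk1 71.3 and 32.1, against 99.8 to 119. The MT libraries had 134 to 171 CPM of Atox1. FT1 lay nearer to MT than FT3 did for each of these 5 genes. FT versus FN and FT versus MT share the FT libraries, and FN versus MN and MT versus MN share the MN libraries, so these comparisons are not independent of each other.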

How the data were processed

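RNA of sorted WGA-488-labelled lingual TG neurons from male and female mice was sequenced after SMART-seq2 amplification, as single reads. The deposited files hold raw read counts per gene and library. Per the labels and methods, the authors used CASAVA 1.8.2, TopHat2 on mm9, SAMtools and HTSeq. The gene annotation and the strand setting are not given in the sources used here. Reads with several positions were not counted, and Mt1, Mt2 and Mt3 have similar coding sequences, so reads they share may be missing from their counts. Rows that name no gene (unassigned and multiply placed reads) were left out of library sizes.

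Here counts were divided by reads on genes for CPM, and by exon length (GENCODE M1, NCBIM37, which is mm9) for RPKM. Symbols matched for 21627 of 22609 genes (95.7%). Tests used edgeR 4.0.16 quasi-likelihood in R 4.3.3 with TMM and 4 groups over 12 libraries; genes needed at least 10 counts in enough libraries and 15 in all (13835 tested, all 10 members among them). P-values were Benjamini-Hochberg adjusted over all genes, and X and Y genes were left out of comparisons between the sexes. Alternatives included limma 3.58.1 (voom) and DESeq2 1.42.0. Left-out libraries, only the groups compared, no count filter, a replicate block and a per-library offset for exon length (chosen after seeing the data) were also tried. Ratios to the median of 9 libraries used a pseudocount of 0.1 CPM. The fits were tested on simulated counts, and intervals for counts of 0 cover counting error only. The members and gene lists were chosen with earlier results of these data known. Named genes were all members, list genes that passed an adjusted p of 0.05 or met the combined criteria (at most 4 a list and comparison, largest first) and the 3 genes most like each member, some of which are not reported here. A comparison of protein sequences was not done.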

Additional observations from a re-analysis of the deposited data

How the results depend on the processing

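Member log2 fold changes were recomputed under each alternative for 22 of the pairs of gene and comparison given above. Of these, 462 values kept their direction and side of the threshold, 39 turned sign (13 of them with 1 library left out) and 6 newly passed the adjusted p. No member passed the adjusted p in the main fit, so a kept value had the same sign and again did not pass. In 14 of the 22 pairs the sign turned under at least 1 alternative. The cause of these changes was not tested.
In MT versus MN, 2 members met the combined criteria with limma-voom, with 10 libraries (without FN2 and FT2), with 9 (also without FT3, which leaves FT1 alone in FT, assumed to vary like the other groups) and with the 2 groups alone. With 1 library left out, Mt3 ranged from −0.17 to 0.076.
In FT versus FN, 1 member met them with DESeq2, limma-voom, no count filter, 9 libraries or the replicate block, 3 with 10 libraries with or without the length offset, 2 with the 2 groups without FN2 and FT2, and 0 to 3 with 1 library left out. Hmox1 turned positive at 0.42 with limma-voom, 1.05 with 10 and 0.34 with 9 libraries, 1.10 in the 2 groups without the pair and 0.73 with 10 libraries and the offset, and ranged from −1.16 to 0.52 with 1 library left out. Mt1 and Mt2 were −0.059 and −0.048 with 10 libraries and the offset, and ranged from −0.97 to 2.58 and −0.73 to 2.83, and Mt3 from −0.28 to 2.66, with 1 left out.
In FN versus MN, 1 member passed the adjusted p with limma-voom and with the 2 groups without FN2. The combined criteria counted 2 with no count filter or the 2 groups alone, 0 with the offset and 0 to 2 with 1 library left out. Mt3 was −0.13 with limma-voom, −0.20 with 10 libraries, 9 libraries, the 2 groups without FN2 or the offset, and −0.27 with 10 libraries and the offset, and ranged from −0.18 to 1.20, and Gclc from −0.051 to 0.28, with 1 left out.
In FT versus MT, 1 member passed the adjusted p with DESeq2 and 0 to 3 with 1 library left out. The criteria counted 0 with 9 libraries or the 2 groups without FT2, 1 with the offset on 12 or 10 libraries, and 0 to 3 with 1 left out. Txnrd1 was 0.017 and Mt2 −0.0070 with 9 libraries, Hmox1 −0.045 with the offset, and Mt1 −0.012, Mt2 −0.30 and Mt3 −0.069 with 10 libraries and the offset; Hmox1 ranged from −0.74 to 0.71 with 1 left out.
For the sex difference, 1 member met the criteria with limma-voom or 9 libraries, 2 with 10 libraries, 4 with 10 and the offset, and 0 to 1 with 1 left out. Hmox1 was 0.47, 0.35, 1.05 and 0.78 and ranged from −1.16 to 0.52; Mt1 was −0.55 with 9, −0.039 with 10 and −0.62 with 10 and the offset, and ranged from −1.59 to 1.95.
Replicate numbers did not pair the samples: same-numbered libraries correlated at −0.362 to 0.574 in their deviations from the group means. With the replicate block, Mt1 was 0.57 in MT versus MN and 1.45 in FN versus MN, and 0 members passed the adjusted p. At 6 to 16 reads, Slc7a11 is limited by depth.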
